A study of Capra hircus with 90 samples.

Results

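The retrotrapezoid nucleus (RTN) of goats that breathed 6% CO2 for 24 h was compared with the RTN of goats kept in room air for 24 h, across all genes that could be tested. The members are the 12 libraries whose titles name this site and these exposures, 6 per group, out of 90 libraries in the series. The animals were adult outbred female goats of dairy breeds such as Alpine, Saanen and Toggenburg, at least 2 years old and assigned to exposures at random. Each gave a punch of frozen brainstem at 3 sites, which lay 8 to 10 mm in front of the obex for the RTN, 2 to 4 mm for the ventral respiratory column (VRC) and 0 to 2 mm for the nucleus of the solitary tract (NTS). Another group of the same batch breathed 6% CO2 for 3 h, and 2 groups of a second batch spent 7 d in room air or in 6% CO2. Different exposures are different goats, so each RTN library is 1 animal. RTN, VRC and NTS libraries of the same exposure and number were taken as the same animal, because their residuals matched by number. A punch is bulk tissue that holds neurons, glia and vessels together. None of the 13 markers listed for the chemosensory neurons of the RTN was linked to a gene symbol, so the presence of those neurons in the punches was not analysed here.

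The RTN lies under the ventral surface of the medulla. Its excitatory neurons fire more when CO2 and acid rise in the blood and the tissue, and they drive the neurons that set the rhythm and depth of breathing. Nearby astrocytes and vessels also respond to CO2, which widens most brain vessels. Among the genes followed here are those of oxygen sensing and vessel growth: EGLN1, a prolyl hydroxylase that marks the hypoxia-inducible factors for destruction when oxygen is present, VEGFA, the main growth factor of vessels, and VEGFB, a related ligand.

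Read depth was 16.61 to 25.96 M counts in the room-air libraries and 13.23 to 26.52 M in the CO2 libraries, so the ranges overlapped. The log2 CPM (a gene's counts scaled to a common library total, the usual unit of relative RNA abundance) of any pair of the 12 libraries correlated at 0.9543 to 0.9758, and 0 pairs held identical counts. On principal components of the 18 RTN libraries of the batch, the first took 20% of the variance and the second 9.84%.

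By edgeR's quasi-likelihood test with Benjamini-Hochberg adjustment, 0 of 15479 genes passed an adjusted p of 0.05 (0%), and the lowest adjusted p was 0.411. An unadjusted p under 0.05 was reached by 1001 genes (6.47%), 578 of them higher (3.73%) and 423 lower (2.73%) after CO2. DESeq2 called 9 genes (0.0581%), 7 higher and 2 lower, and limma's voom with quality weights called 0. The authors' deposited table for this comparison lists 0 genes. Over all genes the median absolute log2 change was 0.114 and the median standard error (SE) was 0.149. Of the 10135 genes with a mean of at least 10 CPM, 97.5% had a 95% confidence interval that lay wholly within 1 on the log2 scale in both directions. For that share of genes, a change of 1 log2 unit or more lies outside the interval, taken 1 gene at a time. The groups did not overlap for 30 higher genes (0.194%) and 20 lower genes (0.129%), of which 5 and 1 have a symbol.

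**Figure D1:**
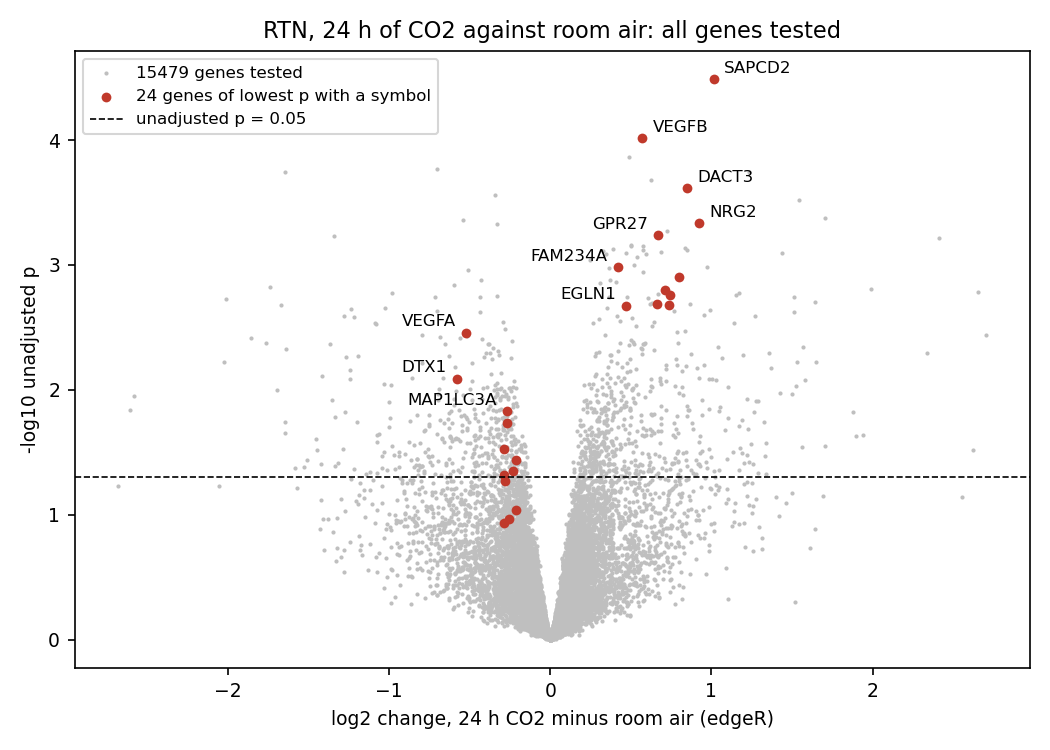
Each grey point is 1 of 15479 genes, with the log2 change of 24 h of CO2 minus room air in the RTN on the x axis and -log10 of the unadjusted edgeR p on the y axis; red points are the 24 genes with a symbol of lowest p, 12 in each direction. SAPCD2 and VEGFB stand highest among the red points, at log2 changes of 1.02 and 0.57, and the 12 red points on the left lie between -0.58 and -0.21.

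Gene symbols were available for 231 of the genes tested, all of them genes that the authors listed at some site or time on libraries of this series. Named genes are therefore no independent evidence of an effect of CO2, and none of the values named for the RTN passed the adjusted threshold by edgeR. In bulk tissue, fewer cells of a type and less RNA per cell cannot be told apart.

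Among genes with a symbol the lowest p in the RTN was that of SAPCD2, a regulator of the orientation of the mitotic spindle. Its lowest, median and highest CPM were 14.3, 19.0 and 27.1 in room air and 28.1, 35.9 and 49.7 after 24 h of CO2. All 6 CO2 libraries lay above all 6 room-air libraries. The log2 change was 1.02 (SE 0.19), with an adjusted p of 0.411 by edgeR and of 0.00238 by DESeq2. VEGFB was at 15.9, 18.2 and 21.5 CPM in room air and at 23.3, 26.1 and 32.9 CPM after CO2, again without overlap. Its log2 change was 0.57 (SE 0.12), with an adjusted p of 0.411 by edgeR and 0.0274 by DESeq2. DACT3, an inhibitor of Wnt signalling that binds Dishevelled, was at 13.0, 19.0 and 24.5 CPM in room air and at 21.7, 35.3 and 40.7 CPM after CO2. In DACT3 the overlap came from CO2 library 5, which lay below room-air library 2. Its log2 change was 0.85 (SE 0.19), with an adjusted p of 0.411 by edgeR and 0.0314 by DESeq2. These are the 3 genes with a symbol that DESeq2 called.

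EGLN1 also separated the groups. It was at 41.0, 50.2 and 56.3 CPM in room air and at 62.1, 65.0 and 80.6 CPM after CO2. The log2 change was 0.47 (SE 0.13, edgeR adjusted p = 0.458, DESeq2 adjusted p = 0.189). CTBP1, a corepressor of transcription, was at 28.8, 34.6 and 38.6 CPM in room air and at 44.3, 49.9 and 77.3 CPM after CO2. Its groups did not overlap, and neither did those of INTS15, a subunit of the Integrator complex that processes nascent RNA. INTS15 was at 8.24 to 11.1 CPM in room air against 12.6 to 27.3 CPM after CO2. The log2 changes were 0.74 (SE 0.21) for CTBP1 and 0.74 (SE 0.21) for INTS15.

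The other 6 of the 12 higher genes had overlapping groups. NRG2, a neuregulin that signals through ErbB receptors, was at 5.73, 7.69 and 9.54 CPM in room air and at 9.26, 13.2 and 21.4 CPM after CO2, a log2 change of 0.92 (SE 0.22). GPR27, an orphan G protein-coupled receptor, had a log2 change of 0.67 (SE 0.17), and EIF3B, a subunit of a translation initiation factor, of 0.66 (SE 0.19). AGFG1 had a log2 change of 0.80 (SE 0.21), NT5DC2 of 0.71 (SE 0.19) and FAM234A of 0.42 (SE 0.11). Of the 12 genes, 11 are on the authors' deposited list of genes lower in the VRC after 24 h, and FAM234A is on that of genes higher in the NTS. Every gene with a symbol is on a deposited list of some site or time, so the choice of genes with a symbol partly set this overlap. At an unadjusted p under 0.05 by edgeR, 63 of the 231 tested genes with a symbol were higher. So were 49 genes of that VRC list, with or without a symbol.

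**Figure D2:**
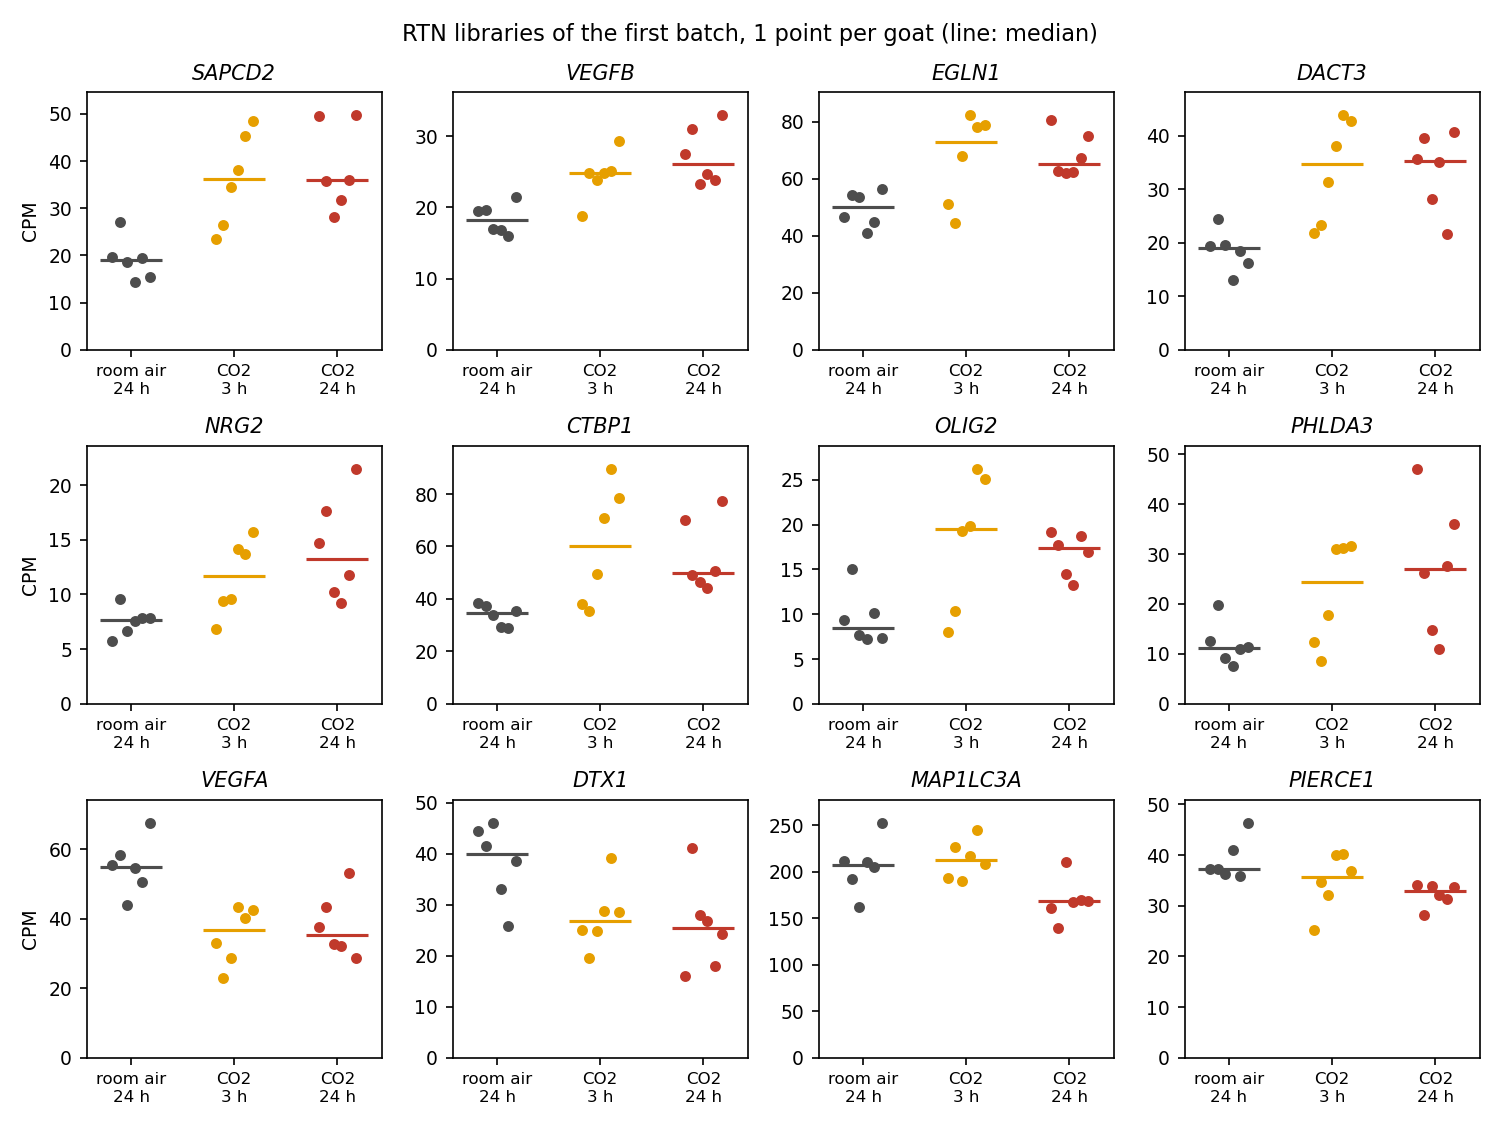
Level in CPM (y axis, from 0) of 12 genes in the 18 RTN libraries of the first batch, grouped as 24 h of room air, 3 h of CO2 and 24 h of CO2; each point is 1 goat, in order of library number within a group, and the line is the median. For SAPCD2, VEGFB, EGLN1 and CTBP1 every 24 h CO2 point lies above every room-air point, for PIERCE1 every one lies below, and for the other genes the groups overlap.

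The log2 changes of the 12 lower genes ran from -0.58 to -0.21, against 0.42 to 1.02 for the 12 higher ones. The 12 were chosen by lowest p, and 8 of them had an unadjusted p under 0.05. These 8 are all the lower genes at that threshold among the 231 tested genes with a symbol, against 2.73% of all genes. VEGFA was at 43.9, 55.0 and 67.5 CPM in room air and at 28.6, 35.3 and 53.3 CPM after CO2. The highest CO2 library, number 5, lay among the room-air libraries, and the other 5 CO2 libraries lay below all of them. The log2 change was -0.52 (SE 0.16, edgeR adjusted p = 0.533). DTX1, a ubiquitin ligase that regulates Notch, was at 25.8, 40.1 and 46.0 CPM in room air and at 15.97, 25.5 and 41.1 CPM after CO2, a log2 change of -0.58 (SE 0.20). PIERCE1, a protein of the microtubules of cilia, was at 36.0, 37.3 and 46.2 CPM in room air and at 28.1, 33.0 and 34.0 CPM after CO2. It is the 1 gene with a symbol whose CO2 libraries all lay below all room-air libraries, at a log2 change of -0.27 (SE 0.11).

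MAP1LC3A, which coats autophagosomes, was at 161.7, 207.5 and 252 CPM in room air and at 139.9, 168.1 and 211 CPM after CO2. Its log2 change was -0.27 (SE 0.10), and the groups overlapped. TXN, the redox protein thioredoxin, had a log2 change of -0.23 (SE 0.11), and DPYSL3, a protein of growing neurites, of -0.21 (SE 0.10). GNG3, a G protein subunit of neurons, had a log2 change of -0.28 (SE 0.14) and MSI2, an RNA-binding protein, of -0.29 (SE 0.14). The remaining 4 were ROPN1L, BOLA3, ESPN and ZFHX4, with log2 changes of -0.29, -0.21, -0.26 and -0.29. Single libraries carried part of these values: without room-air library 6 TXN was at -0.13 and BOLA3 at -0.13, without CO2 library 2 BOLA3 was at -0.14, and without CO2 library 5 ESPN was at -0.14. In the NTS of the same goats all 12 had a negative log2 change and 7 fell past 0.05 by edgeR (1.01% of all genes did). The choice of genes with a symbol partly set these counts. As many as 10 of the 12 are on the authors' deposited list of genes lower in the NTS after 24 h, and VEGFA and DTX1 are on that of the VRC.

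Of the genes without a symbol, ENSCHIG00000024967 and ENSCHIG00000010886 were the higher genes of lowest p, and ENSCHIG00000026325 and ENSCHIG00000016598 the lower ones. ENSCHIG00000024967 was at 32.4 to 39.5 CPM in room air and at 41.1 to 54.8 CPM after CO2, without overlap. ENSCHIG00000016598 was at 79.7 to 102.5 CPM in room air and at 63.8 to 78.6 CPM after CO2, also without overlap. Their log2 changes were 0.49 (SE 0.11) and -0.34 (SE 0.08). ENSCHIG00000010886 differed by 1.23 (SE 0.27) at levels of a few CPM, and ENSCHIG00000026325 by -0.70 (SE 0.15). All 4 had an adjusted p of 0.411 by edgeR and were called by DESeq2.

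Both VEGF ligands with the lowest p thus pointed in opposite directions, VEGFB higher and VEGFA lower after CO2. The third ligand with a symbol, VEGFC, which acts on lymphatic vessels, was at 3.34 to 8.13 CPM in room air against 3.10 to 6.21 CPM after 24 h of CO2, a log2 change of -0.19 (SE 0.26). Of the 24 genes listed for the hypoxia-inducible factor pathway, only EGLN1 and VEGFA have a symbol here.

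All 4 tested genes of Wnt signalling were higher after CO2, each with an unadjusted p under 0.05. That share was 3.73% over all genes, but 63 of the 231 tested genes with a symbol reached it, and the 4 genes come from those. Beside DACT3 these were CCDC85C at a log2 change of 0.79 (SE 0.26), RHOU, a Wnt-regulated GTPase, at 0.68 (SE 0.24) and APCDD1, a Wnt inhibitor of the cell membrane, at 0.59 (SE 0.24). DACT3 and APCDD1 act against the pathway. All 4 tested genes of growth and Hippo signalling were also higher, 3 of them at an unadjusted p under 0.05. AKT1, a kinase of growth factor signalling, was at 27.2 to 41.3 CPM in room air against 39.4 to 81.2 CPM after CO2, a log2 change of 0.72 (SE 0.24). STK11, a kinase that activates AMPK, differed by 0.53 (SE 0.22), LATS2, a kinase of the Hippo pathway, by 0.46 (SE 0.16) and the adaptor NCK2 by 0.31 (SE 0.18). The median log2 changes of these lists were 0.74 and 0.50, against -0.0014 over all genes, and both stayed above 0 in all 24 other settings tried. All 8 genes are on the authors' deposited list of genes lower in the VRC, so their shared direction is not independent of that list.

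Of 4 tested p53 targets, 2 were higher at an unadjusted p under 0.05 and the other 2 were slightly negative. Over all genes 3.73% were higher at that threshold, and 63 of the 231 tested genes with a symbol, from which these come. PHLDA3, which blocks AKT at the membrane, was at 7.64, 11.3 and 19.8 CPM in room air and at 10.9, 27.0 and 47.0 CPM after CO2. Its log2 change was 1.20 (SE 0.38), and 4 of 6 CO2 libraries lay above all room-air libraries. PPM1D, a phosphatase that ends the p53 response, differed by 0.68 (SE 0.24), from 6.89 to 13.3 CPM in room air against 9.18 to 20.1 CPM after CO2. NR1D2, a repressor in the circadian clock and the 1 clock gene with a symbol, was at 24.6, 28.7 and 33.4 CPM in room air and at 30.7, 43.2 and 47.7 CPM after CO2, a log2 change of 0.50 (SE 0.16). LRP8, a receptor for reelin, differed by 0.48 (SE 0.16), and RAB12, a GTPase of membrane traffic, by 0.61 (SE 0.27). In the lists these genes belong to, the other member of the LDL receptor family, LRP3, differed by 0.10. Vesicle traffic held 3 higher genes and 1 lower, MAP1LC3A. PHLDA3, PPM1D, NR1D2, LRP8 and RAB12 are all on the authors' deposited list of genes lower in the VRC. The lists for acid-base transport, immediate early genes, glucocorticoid-responsive genes and the unfolded protein response held no gene with a symbol and were not analysed here.

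The markers of other cell types that a punch could hold were followed beside these genes. OLIG1 and OLIG2 are transcription factors of oligodendrocytes and their precursors. OLIG2 was at 7.19, 8.51 and 15.04 CPM in room air and at 13.3, 17.4 and 19.2 CPM after CO2, and OLIG1 at 19.0, 27.3 and 54.2 CPM and at 42.0, 51.8 and 82.7 CPM. In both genes 5 of 6 room-air libraries lay below all CO2 libraries, and room-air library 2 lay among them. The log2 changes were 0.84 (SE 0.25) and 0.85 (SE 0.32). Both genes are on the authors' deposited list of genes lower in the VRC after 24 h, so their shared direction is not independent of that list. In the VRC the log2 changes were -1.33 for OLIG2 and -1.92 for OLIG1 (edgeR adjusted p = 0.0326 and 0.0182). The summed level of both genes was 26.2 to 69.2 CPM in room air against 60.7 to 99.6 CPM after CO2. They are 2 of 14 listed markers of oligodendrocytes and myelin; the myelin genes of that list, and all listed markers of astrocytes and of oligodendrocyte precursors, have no symbol here. Their part in the other differences was not tested.

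Of 6 tested endothelial genes, 5 were higher and 1 lower, against 49.7% higher over all genes. At an unadjusted p under 0.05 1 was higher, against 3.73% of all genes and 63 of the 231 tested genes with a symbol. That gene was THBD, the thrombin receptor of vessel walls, at 0.48, 3.05 and 5.22 CPM in room air against 4.34, 5.23 and 7.35 CPM after CO2, a log2 change of 0.85 (SE 0.32). The summed level of the 6 genes was 40.4 to 54.7 CPM in room air. After CO2 it was 84.5 CPM in library 1 and 109.9 CPM in library 5, and 32.2 to 47.2 CPM in the other 4 libraries. ACKR1, NOS3 and THBD were highest in these 2 libraries, while ACVRL1 and FOXQ1 were highest in library 4 and MEOX2 in library 3. ACKR1, a chemokine-binding receptor of venules, was at 36.7 and 67.6 CPM in CO2 libraries 1 and 5, at 5.31 to 11.3 CPM in the other CO2 libraries and at 7.44 to 21.6 CPM in room air. NOS3, the endothelial nitric oxide synthase, was at 26.4 and 22.3 CPM in libraries 1 and 5, against 10.7 to 16.3 CPM in the others and 11.0 to 19.3 CPM in room air. The log2 changes were 0.83 (SE 0.54) for ACKR1 and 0.17 (SE 0.18) for NOS3, and without libraries 1 and 5, a choice made after their values were seen, they were -0.59 and -0.16. ACVRL1, a receptor of endothelial cells, differed by 0.04 (SE 0.23).

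CO2 libraries 1 and 5 were also the highest of their group in 2 of the 3 myeloid genes with a symbol, NCF4 and CD14, but not in AIF1, which was highest in libraries 1 and 6. NCF4, a subunit of the phagocyte oxidase, was at 9.60 and 10.8 CPM in CO2 libraries 1 and 5, at 4.10 to 5.83 CPM in the other CO2 libraries and at 3.43 to 6.93 CPM in room air. CD14, a receptor of monocytes and activated microglia, was at 17.6 and 16.5 CPM in libraries 1 and 5, against 7.59 to 11.3 CPM in the others. The log2 changes were 0.57 (SE 0.25) for NCF4 and 0.38 (SE 0.22) for CD14, the latter -0.0012 without both libraries. AIF1, the microglial protein also called IBA1, differed by -0.11 (SE 0.13), and the summed level of the 3 genes overlapped at 67.1 to 101.9 CPM in room air against 74.5 to 108.5 CPM after CO2. The genes HBQ1 and HEMGN of red cells summed to 8.30 to 13.4 CPM and 9.31 to 11.9 CPM. CD14 and TNFAIP1, the 2 tested genes of the inflammation list, were both higher, TNFAIP1 by 0.26 (SE 0.12). Leaving out both libraries left the count of genes past 0.05 by edgeR at 0.

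**Figure D3:**
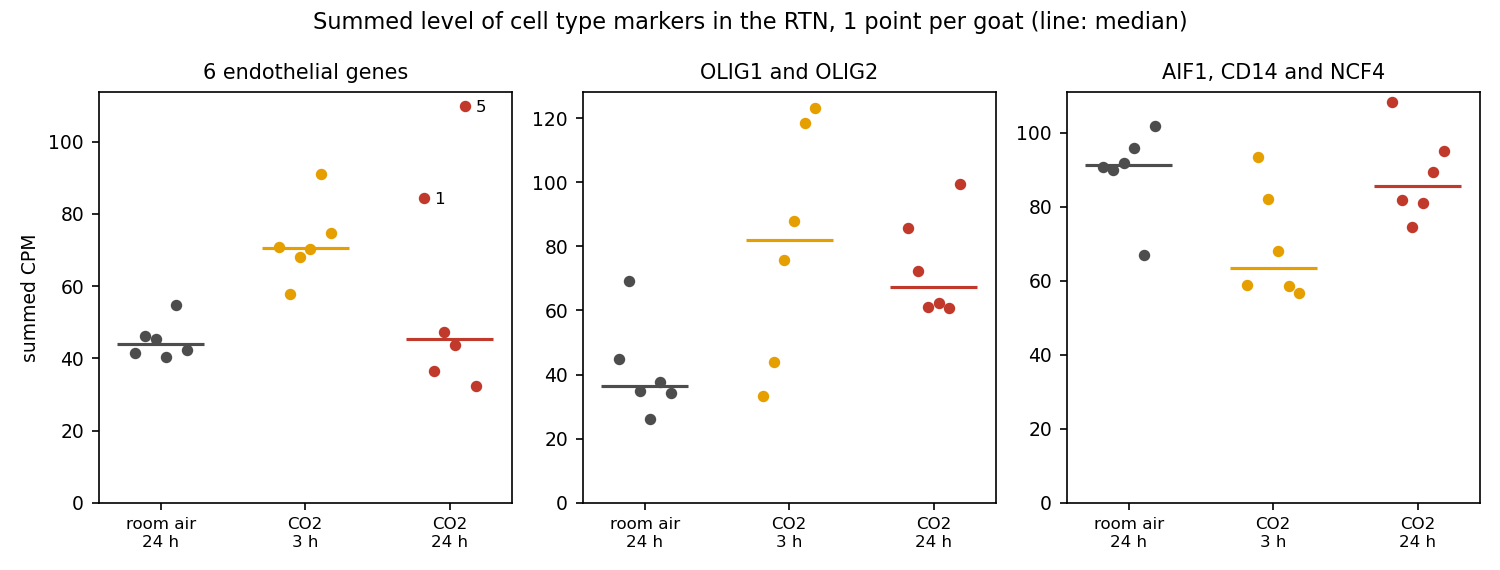
Summed CPM (y axes, from 0) of linked markers of endothelium, oligodendrocytes and myeloid cells in the 18 RTN libraries of the first batch, 1 point per goat in order of library number, with the median as a line. In the left panel CO2 libraries 1 and 5 lie at 84.5 and 109.9 CPM, above the other 4 at 32.2 to 47.2 CPM and above room air at 40.4 to 54.7 CPM.

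Transthyretin, TTR, the main secreted protein of the choroid plexus, was at 1.09, 1.76 and 5.81 CPM in room air and at 4.401, 7.12 and 9.85 CPM after CO2. The groups overlapped in a few libraries, and the log2 change was 1.52 (SE 2.18) in a fit that also holds a 3 h library at 1888 CPM. TTR is on the authors' deposited list of genes higher in the RTN after 3 h. That list rests on the same room-air libraries, so the TTR value is not independent of it. PRPH, the intermediate filament peripherin of motor and sensory neurons, ranged from 41.6 to 694 CPM in room air and from 27.3 to 422.5 CPM after CO2, a log2 change of -0.98 (SE 0.87). That value moved from -0.61 without room-air library 5 to -1.52 without CO2 library 5, and from -1.85 without CO2 libraries 1 and 5 to -0.06 with a surrogate variable in the fit. Among the 5 tested neuronal genes, 2 were higher and 3 lower, and 0 had an unadjusted p under 0.05.

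Genes of protein synthesis and respiration had small values. Of 8 genes of the large ribosomal subunit 2 were higher and 6 lower, and all 5 of the small subunit, all 6 of respiratory complex I and all 5 of complexes III to V were lower. None had an unadjusted p under 0.05, and the medians were -0.04, -0.06, -0.11 and -0.11. All genes of these 4 lists are on the authors' deposited list of genes lower in the NTS after 24 h. Their shared direction is therefore not independent of that list, of which 127 of 151 tested genes were lower in the RTN. Over all genes, 7789 of 15479 were lower. The members of lowest p were RPL11 at -0.12 (SE 0.12), RPS21 at -0.12 (SE 0.17), NDUFA2 at -0.14 (SE 0.10) and ATP5IF1, the inhibitor of ATP synthase, at -0.22 (SE 0.15). The 4 medians turned positive without room-air library 6, to at most 0.06, and that of the small subunit also with voom. Room-air library 6 held the highest NDUFA2, 296.5 CPM against 202 to 237 CPM in the other room-air libraries and 192.8 to 222 CPM after CO2. Of 3 tested genes of RNA polymerase II 1 was higher and 2 lower, and 0 had an unadjusted p under 0.05. COX1, of the mitochondrial genome, was at 321 to 731 CPM in room air against 146.4 to 587 CPM after CO2, a log2 change of -0.55 (SE 0.47).

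Whether the RTN responded differently from the other sites was tested as a difference of effects over the 54 libraries of the first batch. The effect of 24 h of CO2 differed between RTN and VRC for 108 of 16339 genes by edgeR (0.661%), 105 higher in the RTN (0.643%) and 3 lower (0.0184%), and an unadjusted p under 0.05 was reached by 6.58%. With the goat as a block, which pairs the punches of an animal, there were 185, 177 higher and 8 lower. All 105 had a positive log2 change in the RTN and a negative one in the VRC, signs that choosing genes by this difference favours. Most of the difference lay in the VRC: 100 of the 105 had the larger absolute change there, 74 fell past 0.05 in the VRC (0.704% of all genes did), and the median change was 0.57 in the RTN and -0.99 in the VRC. The median change of these genes in the NTS was 0.05.

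The 6 genes of lowest p with a symbol were EGLN1, PPM1D, DACT3, PHLDA3, LATS2 and TRIM28. EGLN1 fell in the VRC from 59.3, 81.1 and 85.6 CPM (lowest, median and highest) to 36.5, 43.1 and 45.4 CPM, a log2 change of -0.90 (SE 0.16, edgeR adjusted p = 0.00404). In the RTN its room-air level was lower than in the VRC and its CO2 level was higher, and the difference of effects was 1.37 (SE 0.23, edgeR adjusted p = 0.00304). PPM1D differed by 2.22 (SE 0.38) and fell in the VRC from 15.5 to 25.3 CPM down to 6.56 to 8.62 CPM. DACT3 differed by 2.36 (SE 0.41), PHLDA3 by 2.80 (SE 0.50), LATS2 by 1.58 (SE 0.29) and TRIM28, a corepressor that silences transposons, by 1.40 (SE 0.26). Each passed 0.05 in the fits that left out each of the 24 libraries in turn. TRIM28 was at 70.8, 92.6 and 110.6 CPM in the room-air RTN and at 102.5, 118 and 146.6 CPM after CO2, and its difference within the RTN was 0.41 (SE 0.12).

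Most of the 105 genes shared the highest and the lowest of the 4 group means. The test that picked them rests on the same 4 groups, so this order largely follows from that choice. The room-air VRC was the highest in 95 and the VRC after CO2 the lowest in 88, with the room-air RTN lowest in the other 17. In all 105 the room-air VRC of this batch also lay above the room-air VRC of the 7 d batch. In 75 the room-air RTN lay below that of the 7 d batch. The choice of the 105 favours a high room-air VRC and a low room-air RTN in this batch, and the shares over all genes were not counted. EGLN1, for example, averaged 78.8 CPM in the 24 h and 35.8 CPM in the 7 d room-air VRC, and 49.4 and 45.1 CPM in the RTN. Batch, time and animals differ between those room-air groups and cannot be told apart. The count of genes moved by more than 1.5 times without RTN room-air library 4, to 66, and without RTN CO2 library 6, to 62.

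**Figure D4:**
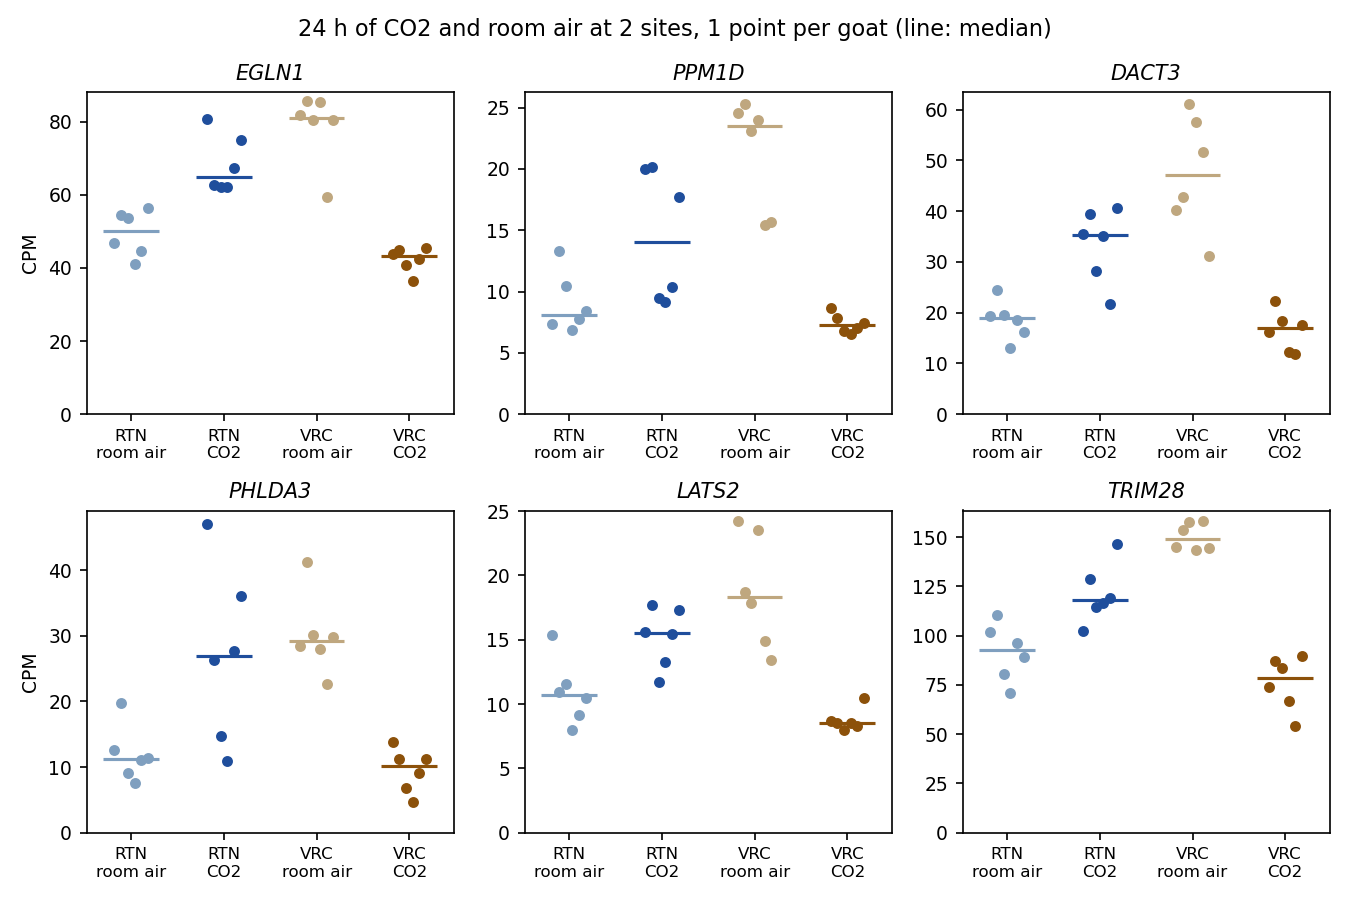
Level in CPM (y axes, from 0) of the 6 genes of lowest p in the test of the RTN effect minus the VRC effect, in the RTN (blue) and VRC (brown) after 24 h of room air or CO2; each point is 1 goat, in order of library number, with the median as a line. In each panel the RTN median is higher after CO2 and the VRC median lower, and the room-air VRC has the highest median of the 4 groups.

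The genes that the authors' deposited table lists as lower in the VRC after 24 h of CO2 showed the opposite sign in the RTN. Of 95 such genes 94 were tested in the RTN, 84 with a higher value (89.4%, against 49.7% of all genes) and 10 with a lower one. Of these, 49 higher and 3 lower genes had an unadjusted p under 0.05, against 3.73% and 2.73% of all genes. Their median log2 change was 0.46 in the RTN after 24 h, 0.47 after 3 h and 0.18 after 7 d, against -1.03 in the VRC and 0.04 in the NTS. The 3 h and 24 h values share the room-air libraries, while the 7 d values do not. The mean log2 CPM of the 94 genes was 3.90 to 4.39 in the room-air RTN libraries and 4.27 to 4.80 after 24 h of CO2, so room-air library 2, the highest, lay among the CO2 libraries. That library was also the highest room-air library in SAPCD2, DACT3, NRG2, OLIG1, OLIG2 and PHLDA3. Among the CO2 libraries, number 6 had the highest mean and numbers 3 and 4 the lowest, and the latter were the deepest and the shallowest of the 6. At 7 d the ranges were 3.85 to 4.47 in room air and 3.79 to 4.81 after CO2. These genes overlap with the test between sites: 60 are among its 105, which is 63.2% of the deposited list and 57.1% of the 105, and both rest on the same VRC libraries. Within the RTN the count of 84 stayed at 82 to 86 when each library was left out in turn.

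The genes listed as higher in the VRC showed the same sign in the RTN in 11 of 15 tested, with a median of 0.35. For the NTS, 127 of 151 genes that the authors list as lower at 24 h were lower in the RTN, 8 of them at an unadjusted p under 0.05 and 0 higher at that threshold. The share past that threshold in either direction, 5.3%, lay near the 6.47% of all genes. The median was -0.09 in the RTN and -0.69 in the NTS. The count of 127 fell to 79 without RTN room-air library 6, which had the highest mean log2 CPM of these genes in its group, 6.04 against 5.41 to 5.798. Of 22 tested genes listed as higher in the NTS, 19 were higher in the RTN, against 49.7% of all genes. At an unadjusted p under 0.05, 10 were higher, against 3.73%, and the median was 0.34. Their mean log2 CPM was highest in CO2 libraries 5 and 1, at 4.978 and 4.872. CO2 libraries 3 and 4, at 4.425 and 4.323, lay within the room-air range of 4.292 to 4.598. The other CO2 libraries lay above that range. The VRC and NTS lists were chosen on punches of the same goats, and same-numbered punches deviated together. A direction shared with the RTN is therefore not independent of those lists.

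**Figure D5:**
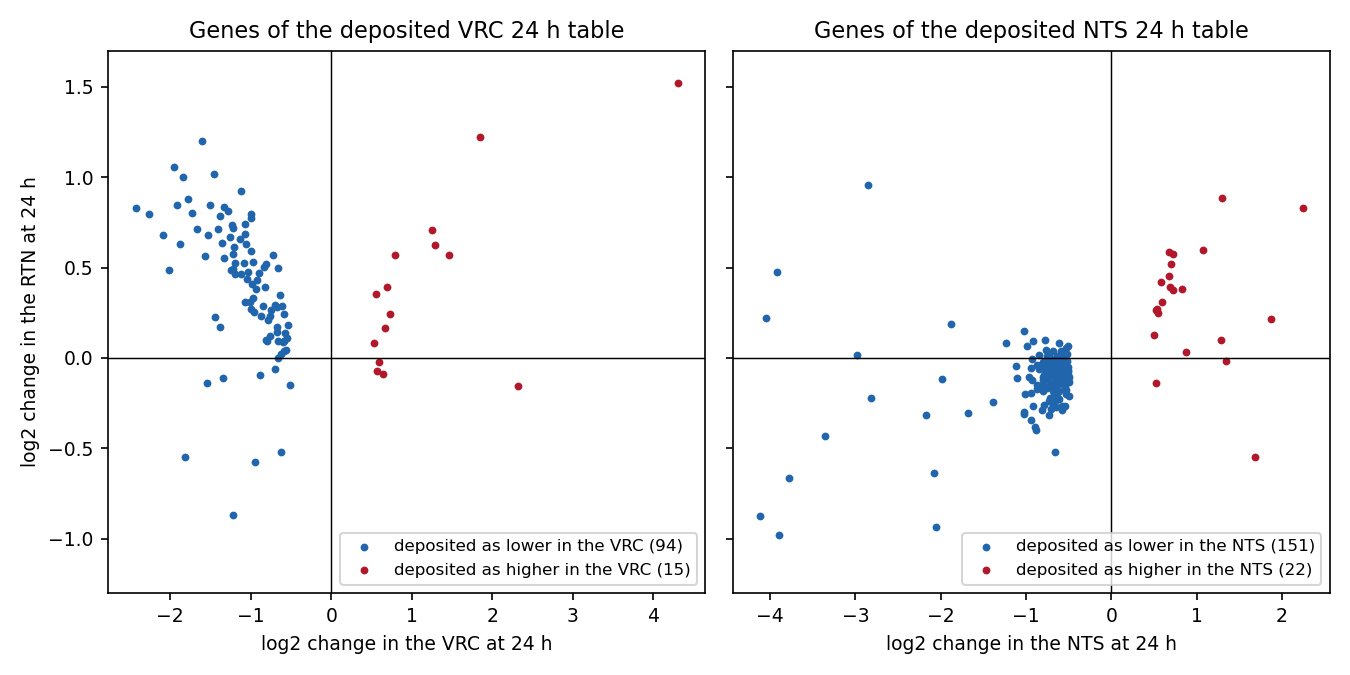
Log2 change after 24 h of CO2 in the RTN (y axis) against that in the VRC (left) or the NTS (right) for the genes of the authors' deposited 24 h tables of those sites; blue genes are listed as lower there and red genes as higher. On the left 84 of 94 blue genes lie above 0 in the RTN, and on the right 127 of 151 lie below 0, most of them close to 0.

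The effect of CO2 did not pass the test of a difference between RTN and NTS for any gene. By edgeR 0 of 16339 passed 0.05 (0%), and 592 had an unadjusted p under 0.05 (3.62%). DESeq2 gave 1 call and voom 0. Across the 10174 genes of at least 10 CPM, which are not independent replicates, the 24 h log2 changes of RTN and NTS correlated at r = 0.485, and those of RTN and VRC at r = 0.0803. The punches of an animal share that animal, and same-numbered libraries of these sites deviated together in every pair.

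After 24 h against 3 h of CO2, 0 of 15479 genes passed 0.05 in the RTN by edgeR (0%), and 1390 had an unadjusted p under 0.05 (8.98%). DESeq2 gave 25 calls and voom 0. The edgeR count was 5 without 3 h library 3. FAM234A was lower at 3 h, 117 to 147 CPM, than at 24 h, 151.6 to 231 CPM, a log2 difference of 0.55 (SE 0.11, edgeR adjusted p = 0.126). THBD was higher at 3 h, 7.23 to 14.2 CPM, than at 24 h, a log2 difference of -0.96 (SE 0.27, edgeR adjusted p = 0.411). The authors' list for the RTN at 3 h, which holds THBD, was chosen on the same 3 h libraries. VEGFC stood at 5.59 to 13.1 CPM at 3 h, a difference of -0.82 (SE 0.24). Other leading genes had similar values at both times: the log2 changes from room air at 3 h and 24 h were 0.92 and 1.02 for SAPCD2, 0.44 and 0.47 for EGLN1, 0.85 and 0.85 for DACT3 and -0.65 and -0.52 for VEGFA. Both changes are taken against the same 6 room-air libraries.

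The 7 d effect in the RTN, measured in the second batch against its own room-air goats, was compared with the 24 h effect. By edgeR 0 of 15876 genes passed 0.05 for the difference (0%), and 514 had an unadjusted p under 0.05 (3.24%). DESeq2 and voom gave 0 calls. SAPCD2 differed from room air by 0.45 (SE 0.27) at 7 d, VEGFB by 0.14 (SE 0.18), EGLN1 by 0.24 (SE 0.18) and VEGFA by -0.15 (SE 0.15). All 12 leading higher genes had a positive and all 12 leading lower genes a negative log2 change at 7 d. Over all genes tested, 7584 were higher and 7895 lower at 7 d. The authors' 24 h lists that most of the 24 genes come from leaned the same way as these genes. Of the genes listed as lower in the VRC, 82 were higher and 12 lower in the 7 d RTN. Of those listed as lower in the NTS, 9 were higher and 144 lower. EGLN1 was at 32.0 to 55.6 CPM in 7 d room air and 29.4 to 72.6 CPM after 7 d of CO2, so its groups overlapped there. Batch and time cannot be told apart in this difference.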

How the data were processed

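RNA of RTN, VRC and NTS punches was extracted with an RNeasy lipid tissue kit and made into libraries with SMART-Seq v4 and Nextera XT, read as 100-bp pairs, per the labels' protocols. Tools named in the submitters' processing notes are fastp (0.24.0), the aligner STAR (2.7.10b), the counter featureCounts (2.0.6) and edgeR (4.6); a genome build is not given in the sources used here. As their main table the authors deposited raw counts per Ensembl gene for 25144 genes and 90 libraries, and 0 columns of per-sample values were left unused. Their deposited gene tables hold log2 fold changes and mean log2 abundances per the file headers. Those deposited tables also hold a likelihood ratio score and p-values. Symbols were taken from the deposited tables by equal mean abundance in a likelihood ratio fit over 90 libraries (17730 genes kept), which linked 238 symbols; all 93 entries given as identifiers matched their own gene.

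The tests on counts used edgeR 4.0.16 in R 4.3.3, with TMM library factors, the filterByExpr filter and a robust glmQLFit (legacy=FALSE). They took Benjamini-Hochberg adjustment over all genes tested and a threshold of 0.05. The RTN comparisons used the 18 RTN libraries of the first batch, those between sites the 54 libraries of that batch, and that with 7 d all 30 RTN libraries. Groups were taken from the sample titles. Intervals and SE are those of the fit; CPM used TMM factors over all libraries, and per-library means of log2 CPM a prior count of 2. Alternatives used DESeq2 1.42.0, limma 3.58.1 and sva 3.50.0, and the fits were tested on simulated data.

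Same-numbered punches of an exposure were taken to come from the same goat. Their residuals correlated at 0.196 to 0.386 between RTN and VRC and at 0.108 to 0.428 between RTN and NTS. In each of these pairs of groups, all 6 libraries were best matched by their own number.

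The members and the gene lists were chosen with earlier results of these data known. Named genes are the 12 higher and 12 lower of lowest p with a symbol and at least 1 CPM, genes that DESeq2 called, 2 identifiers in each direction, 6 genes in each direction of the tests between sites past 0.05, and at most 6 members of each of 28 lists.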

Additional observations from a re-analysis of the deposited data

Results flagged for a closer look

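Outliers were sought in 130 groups of 6 RTN libraries, by the gap of the highest or lowest library to its neighbour over the range of the group, and 7 groups held one; chance gives about 1 in 20. In room air, EIF3B stood at 94.5 CPM in library 2 against 78.6 CPM in the next, MSI2 at 59.8 CPM in library 1 against 71.4 CPM, NDUFA2 at 296.5 CPM in library 6 against 237 CPM and AIF1 at 56.7 CPM in library 5 against 77.5 CPM. The summed level of AIF1, CD14 and NCF4 was 67.1 CPM in that library against 90.1 CPM in the next lowest. After 24 h of CO2, ESPN stood at 23.4 CPM in library 5 against 38.4 CPM, and ENSCHIG00000026325 at 10.5 CPM in library 6 against 8.10 CPM.

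The effect of 24 h of CO2 differed between RTN and VRC, by a test of the difference, for the 6 genes described above. The log2 differences were 1.37 for EGLN1, 2.22 for PPM1D, 2.36 for DACT3, 2.80 for PHLDA3, 1.58 for LATS2 and 1.40 for TRIM28.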

How the results depend on the processing

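The count of 0 genes past 0.05 in the RTN at 24 h stayed at 0 in every setting tried other than DESeq2, which called 9; the range was 0 to 0 when each of the 12 libraries was left out. With the replicate number as a block, which the residuals (0.0338 to 0.285 in same-numbered pairs, 3 of 6 libraries best matched by their own number) do not show to pair goats of different exposures, the count was 0 and the lowest adjusted p 0.343. For RTN minus VRC the count of 108 was 175 with voom, 231 when only libraries of the groups compared were fitted, 185 with the goat as a block and 62 to 113 with a library left out. For RTN minus NTS DESeq2 called 1, and the goat block 0. For 24 h against 3 h of CO2 DESeq2 called 25, and leaving out a library gave 0 to 5. The block by number gave 0 there and for 7 d minus 24 h, and changed no other call. The 127 NTS-lower genes that were lower in the RTN became 79 to 136. Among genes with values given, NOS3 turned to -0.038 and ACVRL1 to -0.10 with voom; without CO2 libraries 1 and 5, a setting chosen after seeing the data, ACKR1 was -0.59, NOS3 -0.16, ACVRL1 -0.12 and CD14 -0.0012; ACVRL1 lay between -0.10 and 0.15 with a library left out. With 6 animals a group, the 95% interval of a gene of at least 10 CPM reached a median of 0.25 to each side on the log2 scale. That interval is for 1 gene at a time, and differences well above it, such as 1.02 in SAPCD2, did not pass the adjusted threshold.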

Other observations

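CO2 libraries 1 and 5 stood apart in the same genes at all 3 sites, which were chosen for display after their values were seen. ACKR1 was at 24.2 and 69.9 CPM in the VRC of these goats against 4.92 to 14.9 CPM in the other 4 CO2 goats, and at 32.8 and 85.4 CPM in the NTS against 2.44 to 6.52 CPM. NCF4 was at 12.7 and 14.9 CPM in the VRC against 3.50 to 5.81 CPM, and at 9.24 and 18.3 CPM in the NTS against 3.69 to 4.78 CPM. NOS3 was at 32.0 and 37.6 CPM in the VRC and at 29.3 and 41.5 CPM in the NTS, the highest of the 6 CO2 goats at each site. By the library numbers, these values, together with those of the RTN, belong to 2 animals.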
